A study of Mus musculus with 6 samples.

Results

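The 10 genes described here encode the interleukin-6 (IL-6) family of cytokines and the receptors and signalling proteins through which they act: the ligand genes Il6, Il11, Lif and Osm, the receptor genes Osmr, Il6ra, Il6st and Il11ra1, the transcription factor gene Stat3 and the feedback inhibitor gene Socs3. They were chosen by symbol, through the Ensembl identifiers of the deposited table, and all 10 were found among its 20533 genes. Messenger RNA had been sequenced from the colon of wild type C57BL/6 mice, all male and 7 weeks old, as 6 libraries of 2 per group. The water group drank water only, the DSS group received 2% dextran sulphate sodium, a polysaccharide that damages the gut lining and is widely used as a model of colitis, and the third group received 2% DSS with montmorillonite, a clay powder. Treatment lasted 7 days in every group and tissue was the distal colon at day 7. The labels name no animals behind the libraries, so p-values here reflect only how far the deposited libraries of a group lie apart, which may be technical.

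The 4 cytokines named here signal through the shared receptor chain gp130, the product of Il6st. IL-6 and IL-11 first bind their own receptor chains (Il6ra and Il11ra1), which then recruit gp130, whereas oncostatin M (Osm) acts through gp130 paired with the OSM receptor (Osmr), and leukaemia inhibitory factor (Lif) through gp130 paired with the LIF receptor. The paired chains activate JAK kinases, which phosphorylate STAT3. STAT3 induces, among other genes, Socs3, whose product binds gp130 and the JAKs and ends the signal. In the gut the family is known for epithelial regeneration, acute phase gene expression and the inflammatory behaviour of stromal cells.

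The deposited values were read counts divided by 1 factor per library, called normalised read counts below. The reads recovered from them summed to between 3741494 and 21481594 per library, the deepest being a DSS and the shallowest a water library. A single read was worth between 0.335 and 2.27 units, so values of a few units rest on a handful of reads. The 2 DSS plus montmorillonite libraries stood apart from each other: across genes, the log2 values of replicate 1 correlated best with the water libraries (0.959 and 0.947, against 0.920 and 0.885 with DSS), and those of replicate 2 with the DSS libraries (0.948 and 0.954, against 0.895 with each water library). Epithelial markers were present in every library and none of the 10 listed was at 0. DSS replicate 2 and DSS plus montmorillonite replicate 2 also held more of the markers of stratified squamous epithelium, with summed values of 34297 and 6368 against 85.4 to 464 in the other 4 libraries. Markers of skeletal muscle summed to 2880 in DSS replicate 2 and 3626 in DSS plus montmorillonite replicate 1. For these markers the other 4 libraries had 90.5 to 585.

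The DNA just upstream of the transcription start was read for the members that RefSeq lists (GRCm38.p6), since several of them moved together. Entries were found for 9 members, with 11 start sites. Osm had no entry, so its upstream DNA was not searched. Each stretch of 250 bases was searched on both strands for TTCNNNGAA, the palindromic element that STAT proteins recognise, for TGANTCA, the AP-1 element, for TTGNNCAA, a C/EBP element, and for an NF-kappaB element, GGG and TTTCC with any 2 letters between them. Matches were present at 4 of these 9 members. The stretches with a match are shown because they carry it, with the matched letters in capitals. All sequence that GENCODE marks as exon is left off.

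Il6, chr5:30012864-30013113, plus strand: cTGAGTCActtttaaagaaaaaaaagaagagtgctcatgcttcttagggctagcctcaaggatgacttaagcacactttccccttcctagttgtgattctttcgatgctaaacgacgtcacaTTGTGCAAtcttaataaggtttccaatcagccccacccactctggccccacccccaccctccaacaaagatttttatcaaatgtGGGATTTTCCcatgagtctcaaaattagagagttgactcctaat
Il11, chr7:4778142-4778391, minus strand: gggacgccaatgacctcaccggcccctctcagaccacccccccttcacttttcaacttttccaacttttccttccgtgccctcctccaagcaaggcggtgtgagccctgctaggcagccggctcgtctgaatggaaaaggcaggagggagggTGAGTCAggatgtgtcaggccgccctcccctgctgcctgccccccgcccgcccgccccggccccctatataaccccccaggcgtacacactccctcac
Lif, chr11:4257318-4257556, plus strand: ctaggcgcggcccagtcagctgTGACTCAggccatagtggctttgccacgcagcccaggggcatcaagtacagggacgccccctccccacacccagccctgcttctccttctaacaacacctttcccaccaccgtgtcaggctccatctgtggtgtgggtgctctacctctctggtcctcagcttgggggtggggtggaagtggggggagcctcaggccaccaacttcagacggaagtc
Socs3, chr11:117969452-117969616, minus strand: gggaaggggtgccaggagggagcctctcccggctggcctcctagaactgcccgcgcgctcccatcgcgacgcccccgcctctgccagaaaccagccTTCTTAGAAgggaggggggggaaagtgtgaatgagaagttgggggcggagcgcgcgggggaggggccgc

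The Il6 stretch held 1 AP-1, 1 C/EBP and 1 NF-kappaB match, that of Il11 (the more downstream of its 2 listed starts) and that of Lif 1 AP-1 match each, and that of Socs3 1 STAT match, 154 to 146 bases before the start. No match overlapped another. Over all 32817 listed starts, 7.01% of such stretches held the STAT letters, 6.75% the AP-1, 5.65% the C/EBP and 1.41% the NF-kappaB letters. A match describes the letters of the reference genome and not binding, and no binding was measured in these samples.

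Setting DSS beside water shows how the 10 genes differed between the DSS and the water libraries. Of the 4 ligand genes, Il6, Il11 and Osm rose and Lif did not pass the test. The test was limma on log2(value + 1) over the 4 libraries of the comparison, with Benjamini-Hochberg adjustment over all 20307 genes tested and a threshold of 0.05, and all adjusted p-values below come from it. Over all genes it called 15.1% in either direction, 7.9% as higher and 7.18% as lower.

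Il11, a cytokine made largely by stromal cells, was the ligand gene with the highest mean level per kilobase of exon in DSS. Il11 (ENSMUSG00000004371.14, GRCm38 chromosome 7, 4772373 to 4782859) had normalised read counts of 2.88 and 2.27 in the water libraries, from 3 reads and 1 read, and of 651 and 1443 in the DSS libraries, from 1943 and 3011 reads. Both DSS values lay far above both water values. In bulk tissue a change in the number of cells of a type and a change in RNA per cell cannot be told apart, here and below. The ratio of pooled reads was 362, with an exact 95% counting interval of 141 to 1329, and the fitted log2 fold change was 8.09 ± 0.47 (SE, 2 libraries per group, adjusted p = 0.00230). Counting intervals here cover counting error only.

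Il6 encodes the founding member of the family. The table gave Il6 (ENSMUSG00000025746.11, chromosome 5, 30013114 to 30019981) a value of 0.960 in water replicate 1, from 1 read, no read in water replicate 2, and values of 78.7 and 338 in DSS. The groups did not overlap, and the DSS libraries differed 4.29-fold between themselves, the widest gap among the 10 genes. Il6 had a ratio of pooled reads of 275 with an interval of 49.2 to 10859, which the single water read leaves wide, and a log2 fold change of 6.88 ± 0.83 (adjusted p = 0.00904).

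Osm (ENSMUSG00000058755.3, chromosome 11, 4236420 to 4241026), a product of neutrophils, macrophages and T cells, was at 4.80 and 2.27 in water (5 reads and 1 read) and at 81.1 and 230 in DSS. Its log2 fold change was 4.98 ± 0.66 (adjusted p = 0.0109), and the ratio of pooled reads was 35.1 with an interval of 16.1 to 96.0. Lif lies on the same strand of chromosome 11 as Osm, 16530 bases further along. Lif (ENSMUSG00000034394.14, 4257557 to 4272514), known in stem cell culture for holding embryonic stem cells undifferentiated, had 41.3 and 40.9 in water against 55.9 and 153 in DSS. Both DSS values of Lif lay above both water values, but the second was 2.73 times the first, and its log2 fold change of 1.15 ± 0.52 did not pass (adjusted p = 0.188, 95% interval of the difference -0.12 to 2.43).

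Among the receptor genes Osmr and Il6st rose, and Il6ra and Il11ra1 did not pass. Osmr (ENSMUSG00000022146.12, chromosome 15, 6813577 to 6874969) had 74.9 and 127 in water against 950 and 1263 in DSS. The log2 fold change of Osmr was 3.47 ± 0.31 (adjusted p = 0.00557), and its DSS libraries lay within 1.33-fold of each other, closer than those of the other 5 members called. Il6st, the gp130 gene (ENSMUSG00000021756.12, chromosome 13, 112464070 to 112510086), had 599 and 773 in water against 2155 and 3615 in DSS, a log2 fold change of 2.03 ± 0.28 (adjusted p = 0.0122). Il6ra, the IL-6 binding chain (ENSMUSG00000027947.11, chromosome 3, 89864059 to 89913196), had 82.5 and 109 against 159 and 288, with no overlap but no call (log2 fold change 1.16 ± 0.36, adjusted p = 0.0819). Il11ra1, the IL-11 binding chain (ENSMUSG00000073889.10, chromosome 4, 41699989 to 41769474), had 246 and 314 against 251 and 270. The groups of Il11ra1 overlapped, with a difference of -0.09 ± 0.22 (adjusted p = 0.802, 95% interval -0.62 to 0.44) that turned to 0.15 with scaling by library size only. The annotated span of Il11ra1 overlaps other genes, among them Galt on the same strand, and it has a close copy, Il11ra2, so its value may hold reads shared between genes.

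Stat3, the signal carrier (ENSMUSG00000004040.16, chromosome 11, 100885098 to 100939540), had the highest mean level per kilobase of the 10 genes in water. Its values were 1271 and 1324 in water against 1927 and 3318 in DSS, and its log2 fold change of 0.96 ± 0.27 missed the threshold (adjusted p = 0.0685). Both DSS values lay above both water values. Socs3, the feedback inhibitor and a STAT3 target (ENSMUSG00000053113.3, chromosome 11, 117966079 to 117970047), stood at 114 and 150 in water against 1258 and 3356 in DSS, a log2 fold change of 3.96 ± 0.46 (adjusted p = 0.00861). The Socs3 values of the DSS libraries differed 2.67-fold, yet the lower of them was far above either water value.

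**Figure D1:**
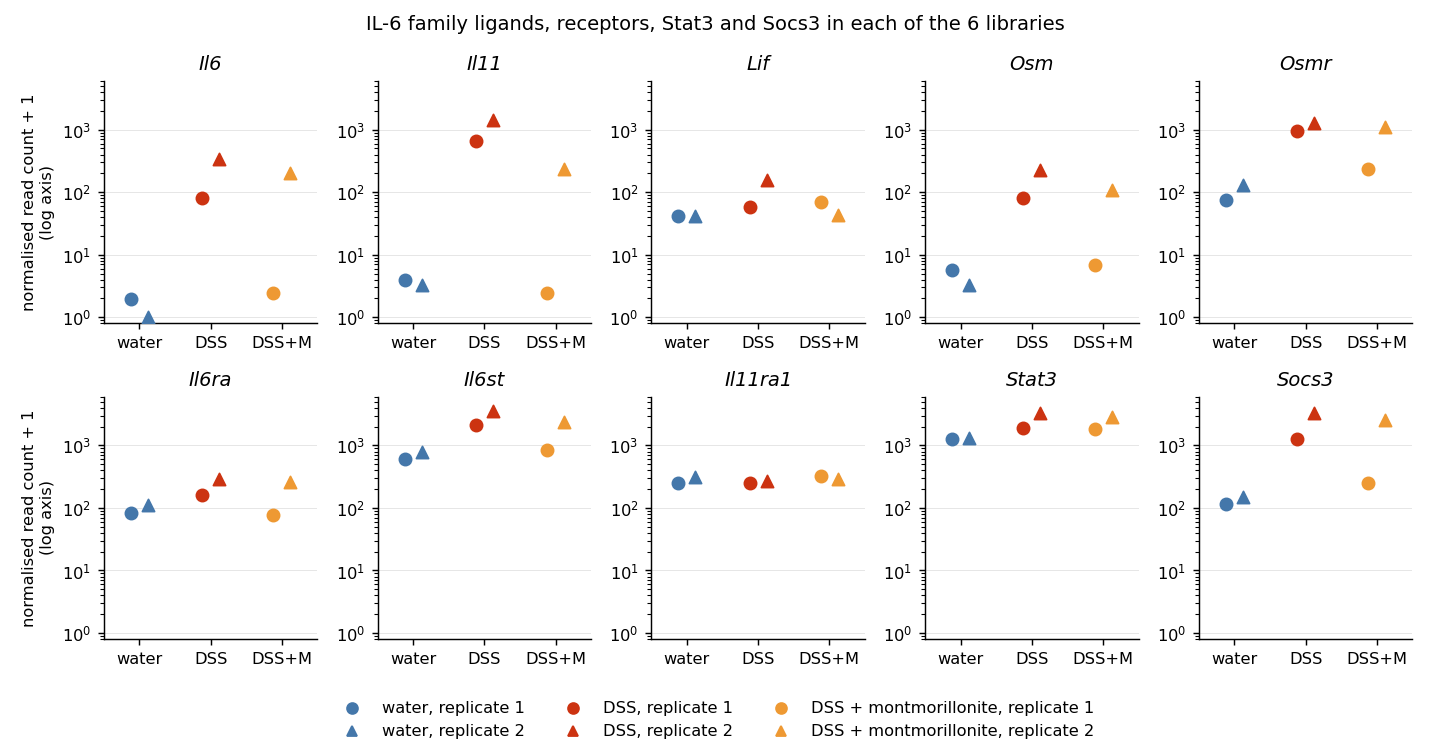
Normalised read count plus 1 (log axis) of each of the 10 genes in the 2 water, 2 DSS and 2 DSS plus montmorillonite (DSS+M) libraries, 1 point per library with circles for replicate 1 and triangles for replicate 2. Il6, Il11, Osm, Osmr, Il6st and Socs3 stand well above the water points in the DSS pair, Il11ra1 lay between 246 and 321 in every library, and the DSS plus montmorillonite libraries parted for most genes.

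In all, 6 of the 10 genes were called higher in DSS and none lower, against 7.9% of all genes tested called higher, and 9 of 10 did not overlap between the groups, all of them higher in DSS, against 33.9% of all genes. The median log2 fold change was 2.75 for the 10 genes and 0.10 for all genes tested. DSS replicate 2 had the higher value of the DSS pair in all 10 genes. In limma no gene of the table passed when either DSS library was left out, and none passed in a fit of all 6 libraries (4662 genes at an unadjusted p under 0.05, 7 of the 10 members among them). Leaving out DSS replicate 1 or 2 left 6256 or 4795 genes at an unadjusted p under 0.05. EdgeR on the recovered reads called the same 6 members, against 10.6% of its tested genes called higher, and DESeq2 called these with Il6ra and Stat3, against 12%.

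Levels per kilobase of annotated exon allow the genes to be set beside each other. In water the order of the mean level per kilobase was Stat3 (136), Il11ra1 (62.6), Il6st (61.8), Socs3 (45.7), Il6ra (11.1), Lif (9.45), Osmr (8.35), Osm (1.56), Il11 (1.24) and Il6 (0.198). The ranges of neighbouring genes overlapped from Il11ra1 to Il6st, from Lif to Osmr, and from Osm to Il11. In DSS the order of the mean level per kilobase was Socs3 (798), Il11 (503), Stat3 (275), Il6st (260), Osmr (91.4), Il6 (85.8), Osm (68.4), Il11ra1 (58.3), Il6ra (25.9) and Lif (24.0). The ranges of the DSS pair overlapped between all neighbours in that order except from Il6st to Osmr and from Il11ra1 to Il6ra. Il11 was next to last in the order in water and next to Socs3, the first, in DSS.

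The rest of the pathway was followed through 6 lists of 68 genes in all, of which 65 were in the table and 64 were tested. In DSS against water 19 of the 64 were called higher and none lower, against 7.9% of all genes called higher and 7.18% lower. The median log2 fold change was 0.78, against 0.10 for all genes tested. It was the same with genes without a water read set to a floor of 3 reads over the water libraries. The count of each list below is to be set beside the same 7.9%.

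Among 7 tested ligand genes of the wider family only Clcf1, the cardiotrophin-like cytokine, rose. Clcf1 had 17.3 and 38.7 in water against 187 and 230 in DSS (log2 fold change 2.95 ± 0.44, adjusted p = 0.0143). Of 4 receptor genes Lifr and Il27ra rose. Lifr, the LIF receptor chain that pairs with gp130, had 147 and 161 against 390 and 393 (1.34 ± 0.20, adjusted p = 0.0138), and Il27ra, the IL-27 receptor, had 12.5 and 22.7 against 102 and 55.6 (adjusted p = 0.0458). Both DSS libraries lay above both water libraries in each of these 3 genes.

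Of 12 kinases and transducers 1 was called: Jak3, a kinase of lymphoid and myeloid cells, gave 536 and 688 in DSS against 155 and 205 in water (1.76 ± 0.24, adjusted p = 0.0113). The kinases that gp130 uses did not pass. Jak1 had 1251 and 1287 against 1843 and 1747 (log2 fold change 0.50, adjusted p = 0.0808), Jak2 had 1155 and 1228 against 1130 and 890 (-0.25), and Tyk2 had 466 and 464 against 440 and 377 (-0.19). The sheddase gene Adam17, whose product releases soluble IL-6 receptor, had 412 and 432 against 639 and 649 (0.61, adjusted p = 0.0629). Of the genes that did not pass, Jak1, Stat3 and Adam17 lay above water in both DSS libraries and Jak2 and Tyk2 below it.

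Of 9 other feedback regulators the phosphatase genes Ptpn1 (log2 fold change 1.20 ± 0.24, adjusted p = 0.0271) and Ptpn6 (1.06 ± 0.26, adjusted p = 0.0464) rose and the others did not pass. Socs1 and Cish, relatives of Socs3 that respond mainly to interferon and to STAT5, lay below water in both DSS libraries: Socs1 had 153 and 109 in water against 60.0 and 80.5 in DSS (adjusted p = 0.122), and Cish had 162 and 191 against 65.7 and 152 (adjusted p = 0.251). They were 2 of the 9, neither passed, and the share of all genes lower in both DSS libraries is not given here. Of the 9, 4 lay above water in both DSS libraries, not far from the 33.9% of all genes. Socs5, not called, was among these 4, with 223 and 209 against 303 and 313. None of the other SOCS genes tested (Socs1, Socs2, Socs5 and Socs7) passed, and their difference from Socs3 was not tested.

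Of 24 tested genes known as STAT3 targets 11 rose, none fell and the median log2 fold change was 1.35, the same with Reg3b and Reg3g, which had no read in water, at that floor. The highest fold changes were those of Saa3, Lcn2, Hp and Lrg1. Saa3, a serum amyloid A, had 11.5 and 18.2 in water against 4253 and 6250 in DSS (log2 fold change 8.38 ± 0.30, adjusted p = 0.00137), Hp, haptoglobin, had 4.80 and 2.27 against 707 and 1199 (7.72 ± 0.45, adjusted p = 0.00230), and Lrg1, a leucine-rich glycoprotein, had 8.64 and 11.4 against 505 and 1815 (6.46 ± 0.60, adjusted p = 0.00609). In all of them both DSS libraries exceeded both water libraries by a wide margin. Timp1, Reg3b, Reg3g and Icam1 also rose. Lower log2 fold changes were those of Cebpb (2.89 ± 0.36), a transcription factor of the acute phase, Il4ra (2.38 ± 0.29), the IL-4 receptor, and Pim1 (1.70 ± 0.27), a survival kinase. Among the genes of the list that did not pass, Bcl2l1 had 422 and 416 against 407 and 564, Mcl1 had 5992 and 5040 against 3392 and 3563 (log2 fold change -0.66, adjusted p = 0.0547), and Birc5 had 334 and 330 against 341 and 192. These examples do not stand for the rest. Of the 24 genes, called or not, 17 were higher in both DSS libraries than in both water libraries, against 33.9% of all genes. Mcl1 was lower in both, 1 of the 24, and the share of all genes lower in both is not given here. Many of these targets also answer to other pathways, so the list measures their level and not STAT3 activity, and phosphorylated STAT3 was not measured.

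The IL-10 family, whose receptors also use STAT3, held 8 tested genes, of which Il10ra and Il22 rose. Il22, an epithelial repair cytokine, had no read in water against 6.37 and 6.71 in DSS (adjusted p = 0.0319). Il22 was 3.21-fold higher if the water group is set at 3 reads, and the counting interval of its ratio of pooled reads began at 2.47. Il22ra1, its receptor chain on epithelium, had 394 and 387 in water against 275 and 139 in DSS (log2 fold change -0.99, adjusted p = 0.107).

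**Figure D2:**
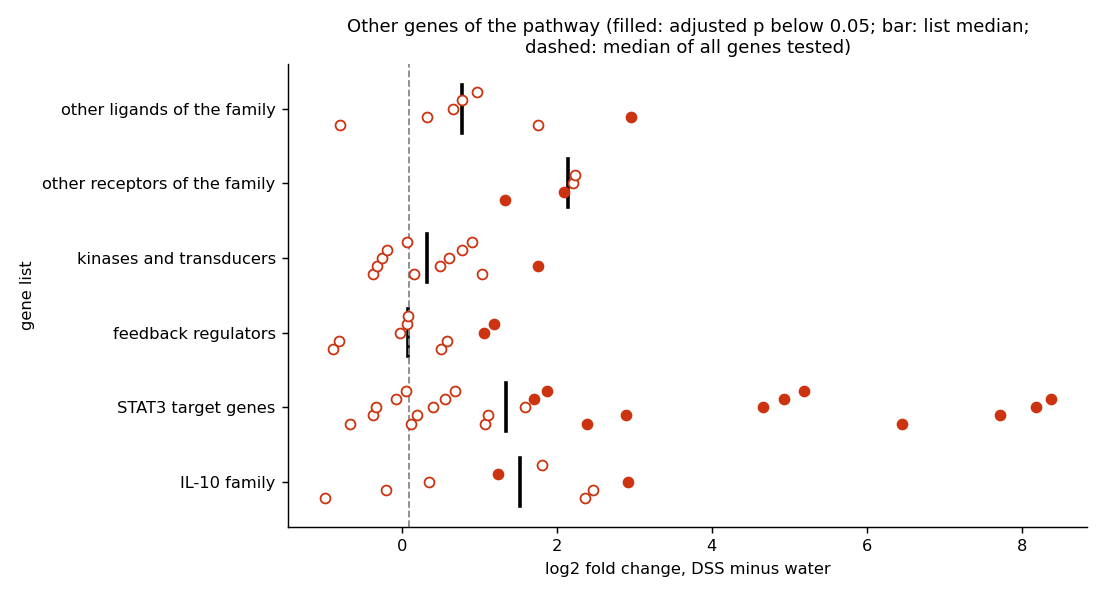
Log2 fold change of DSS minus water (horizontal axis) for each tested gene of the 6 pathway lists (rows), filled where the adjusted p was below 0.05, with a bar at each list's median and a dashed line at the median of all genes tested. The 11 filled STAT3 target genes lie between 1.70 and 8.38, and the filled genes of the kinase and feedback lists are Jak3 at 1.76, Ptpn1 at 1.20 and Ptpn6 at 1.06.

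The comparisons of DSS plus montmorillonite with water and with DSS ask whether these levels differed with the clay. Their water or DSS libraries are also those of the comparison above. No gene was called in either: 0% of all genes passed in both, with 1576 genes at an unadjusted p under 0.05 against water and 1444 against DSS. Among the 10 members these unadjusted counts were 2 (Osmr and Stat3) and 0. EdgeR also called 0 genes in each. Against water its filter on low reads left 7 of the 10 members, so Il6, Il11 and Osm were not tested by it there. DESeq2 called 200 genes against water, 87 higher and 113 lower. The 87 were 0.586% of its tested genes, with Osmr and Socs3 among them. Against DSS it called 66 genes in either direction, 0.453% of those tested, with no member. Of the 64 genes of the pathway lists 0 were called by limma in either comparison.

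The values of the 2 libraries lay far apart. In DSS plus montmorillonite replicate 1, Il6 had 1.44, Il11 1.44 and Osm 5.75, from 1, 1 and 4 reads. These values lay at the level of the water libraries, and the ratio to pooled water reads had a 95% counting interval that included 1 for each of them. Other genes in replicate 1 lay above both water libraries and below both DSS libraries: Osmr had 230, Il6st 846, Socs3 246 and Stat3 1860. Il6ra, at 76.2, lay below all 4 of the water and DSS libraries.

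In DSS plus montmorillonite replicate 2 most members stood among the DSS values. Il6 had 205, Osm 109, Osmr 1114, Il6ra 260, Il6st 2349, Stat3 2834 and Socs3 2589, and each of these 7 values lay between the 2 DSS libraries. A pair of ligand genes did not. Il11 had 231, from 127 reads, below the 651 and 1443 of DSS though far above water. Lif had 41.8, from 23 reads, next to the 41.3 and 40.9 of water and lower than the 67.6 of replicate 1. Lif was thus the only member other than Il11ra1 whose value was lower in replicate 2 than in replicate 1 of this group.

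On the log2 scale, the 6 genes called higher in DSS had covered a median of 14.0% of the way from the water to the DSS mean in replicate 1 and 97.1% in replicate 2. The same medians over all 1605 genes called higher in DSS were 10.8% and 93.8%. Replicate 2 lay within the range of the DSS pair for 5 of the 6 genes, against 37.9% of the 1605. In that replicate Il11 had covered 74.5% of the way and Il6 105%.

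**Figure D3:**
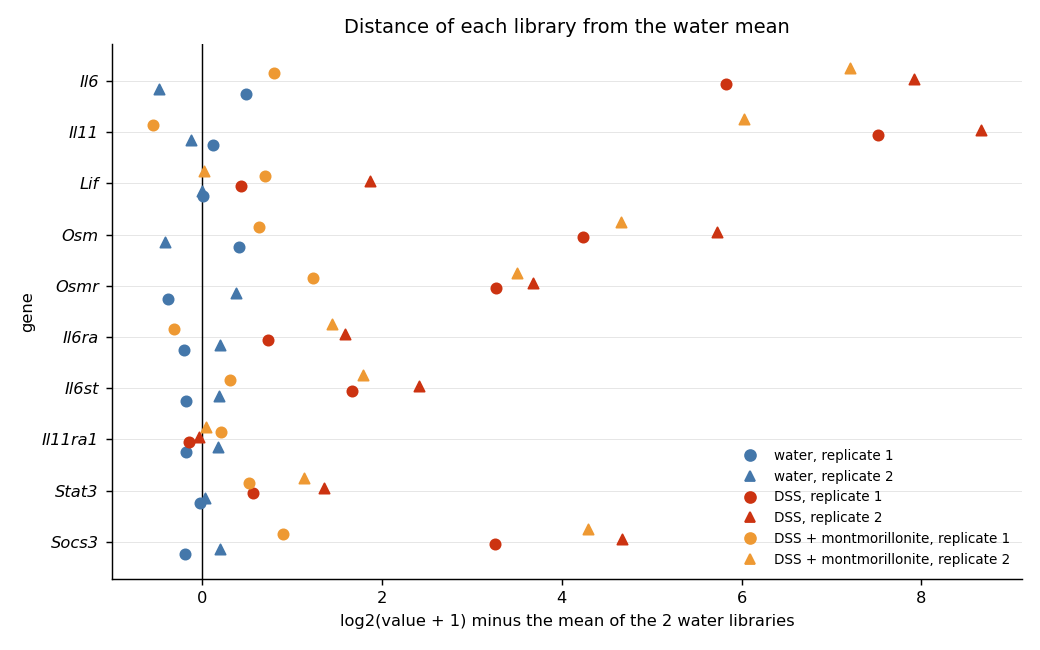
Difference of each library from the mean of the 2 water libraries, in log2(value + 1), for the 10 genes. DSS plus montmorillonite replicate 2 (orange triangles) lies between the 2 DSS libraries at 7 genes but not at Il11, where it stands at 6.02 against 7.52 and 8.66, Lif, where it stands at 0.023, or Il11ra1. Replicate 1 (orange circles) lies nearer to water than to DSS at Il6, Il11, Osm, Osmr, Il6st and Socs3, and between the DSS libraries at Lif.

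The fitted differences of DSS plus montmorillonite from DSS had wide intervals. Il11 had the largest of the 10, a log2 fold change of -5.35 ± 2.15 (SE, adjusted p = 0.691, 95% interval -10.90 to 0.20), and was the only member lower in both DSS plus montmorillonite libraries than in both DSS libraries, a pattern that 20.6% of all genes showed. Without DSS plus montmorillonite replicate 2, which leaves 1 library in that group, Il11 differed by -8.64 and was called lower as 1 of 285 genes called. Without replicate 1 it differed by -2.07 (adjusted p = 0.691), so the call rested on 1 library. Il6 differed by -2.87 ± 2.18, Osm by -2.34 ± 1.42 (-4.35 without replicate 2 and -0.32 without replicate 1 of the group) and Socs3 by -1.36 ± 1.19. Stat3 differed by -0.14 ± 0.39, with a 95% interval of -1.15 to 0.87. Without DSS plus montmorillonite replicate 1 the differences of Il6, Osmr, Il6ra, Stat3 and Socs3 turned positive, at 0.33, 0.024, 0.28, 0.16 and 0.33. Il11ra1 was higher in both DSS plus montmorillonite libraries than in both DSS libraries, as were 19.4% of all genes, by 0.21 ± 0.27 (adjusted p = 0.827), and by -0.044 with scaling by library size only.

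Against water, Osmr was higher by 2.36 ± 0.82 (adjusted p = 0.629) and Stat3 by 0.82 ± 0.26 (adjusted p = 0.629), and 7 of the 10 genes were higher in both DSS plus montmorillonite libraries than in both water libraries, against 21.5% of all genes. The exceptions were Il11, Il6ra and Il11ra1. Some of the 7 exceeded the higher water value only narrowly. In replicate 1 of the group Il6 had 1.44 against 0.960, 1 read each, and Osm 5.75 against 4.80, 4 reads against 5. In replicate 2 Lif had 41.8 against 41.3. For these genes the count of 7 rests on differences of a size that counting error can give. Without replicate 2 of the group the differences of Il11 and Il6ra from water turned negative, at -0.55 and -0.31. Without replicate 2 or replicate 1 the difference of Osmr was 1.23 or 3.50, and that of Stat3 0.52 or 1.13.

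**Figure D4:**
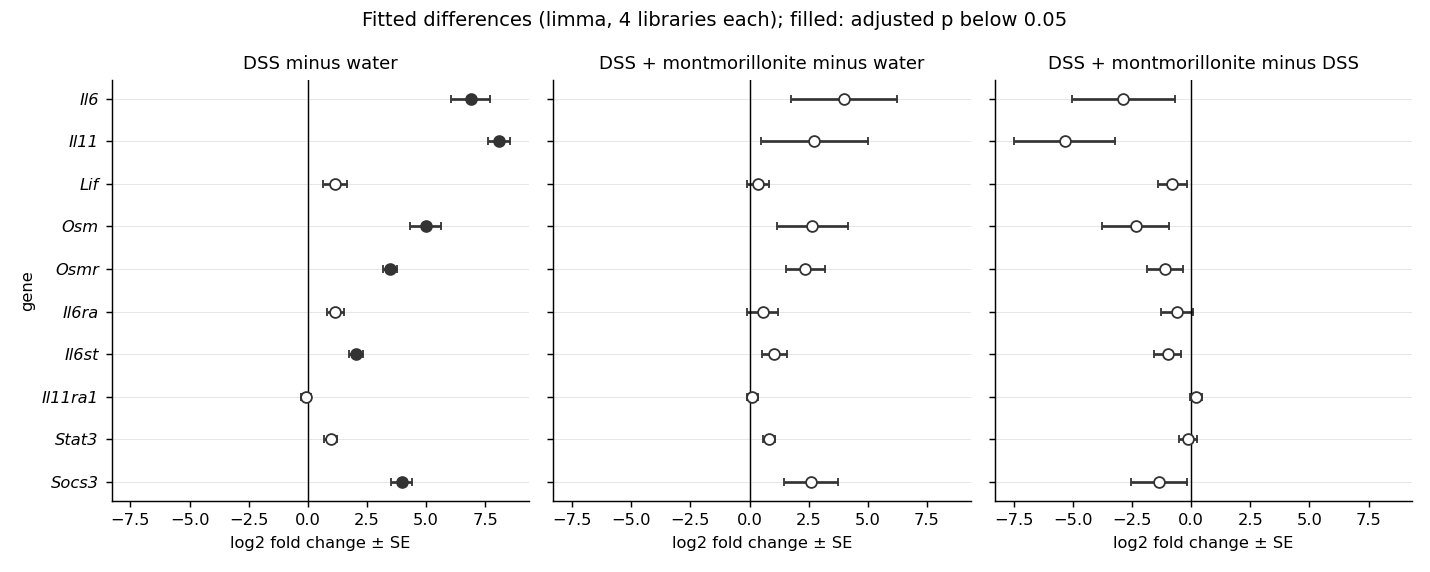
Fitted log2 fold change with its standard error for the 10 genes in the 3 comparisons, each fitted by limma on its 4 libraries, filled where the adjusted p was below 0.05. Only Il6, Il11, Osm, Osmr, Il6st and Socs3 in DSS minus water are filled, and the errors of the comparisons with the clay reach 2.27 at Il11.

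Markers of other cell types moved with these values, and their part in the results was not tested. All 10 neutrophil markers were called higher in DSS. Their summed value, with Retnlg and Mmp8 at 0 in both water libraries, went from 40.3 and 50.0 there to 3974 and 9044 in DSS, with 121 and 8209 under the clay. Fibroblast markers, of which 6 of 10 were called higher in DSS, gave sums of 12485 and 14892 with water, 39540 and 65499 with DSS alone and 13122 and 40822 with the clay. Endothelial markers, 8 of 8 called higher, summed to 916 and 1078, 3706 and 6637, and 994 and 4143. The monocyte and macrophage markers, 5 of 10 called higher, summed to 4911 and 4107, 10254 and 8841, and 4286 and 10536. All 10 epithelial markers were called lower in DSS. They gave sums of 174118 and 179543 with water, 67508 and 46956 with DSS alone and 193141 and 99895 with the clay. Of 8 T and NK cell markers 1 was called higher and 1 lower, and none of the smooth muscle (6), skeletal muscle (6) or stratified squamous (8) markers was called.

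**Figure D5:**
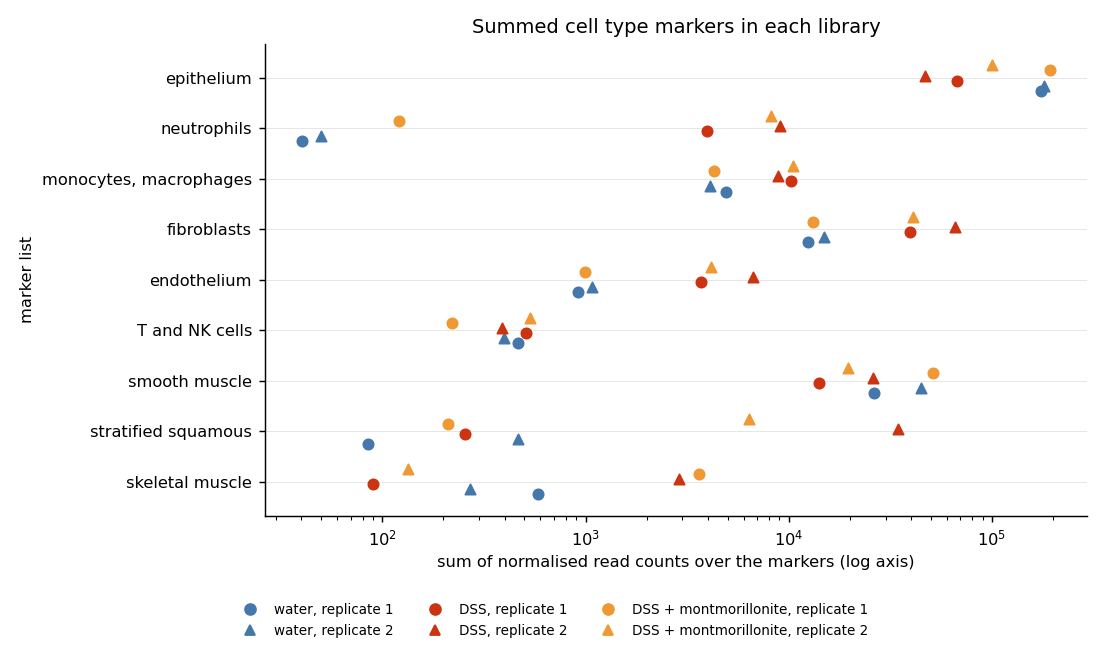
Sum of the normalised read counts of each cell type marker list (log axis) in each of the 6 libraries. Neutrophil, fibroblast and endothelial markers are high in both DSS libraries and in DSS plus montmorillonite replicate 2, and stratified squamous markers stand apart in DSS replicate 2, at 34297.

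The genes most like Il11 and Socs3 were sought among 12927 other protein-coding genes by the distance between centred log2 values over the 6 libraries. For Il11 the nearest were Cemip, a hyaluronan-degrading enzyme, Tnfsf11, the cytokine RANKL, Mmp9, Chil1 and Trem1, of which Mmp9 and Trem1 belong to the neutrophil marker list. Cemip stood at 48.0 and 20.5 with water, 2172 and 6116 with DSS alone and 24.5 and 1563 with the clay, at a distance of 1.64 log2 units. For Socs3 the nearest were Plekhg4, Spon1, Col18a1, a basement membrane collagen, Adamts1, a secreted protease, and Gfpt2, at 0.571 to 0.687 log2 units. Adamts1 stood at 32.6 and 52.3 with water, 424 and 1692 with DSS alone and 87.7 and 1239 with the clay.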

How the data were processed

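The authors deposited 1 normalised signal value per gene and library, and aligned to mm10 (GRCm38) per the submitters' processing notes. The aligner, counter and normalization tool are not given in the sources used here. Every deposited library holds values that are multiples of 1 constant (100% whole within 0.01 read), which returned the read counts. The factor of each library equalled the DESeq2 median-of-ratios size factor. No gene had under 10 reads in total. All value columns were used. Symbols came from GENCODE M21 (20500 of 20533 identifiers matched).

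The main test was limma 3.58.1 (R 4.3.3) with an intensity trend. It took log2(value + 1) of the 20307 genes whose mean reached 1, on the 4 libraries of each comparison, two-sided. The recovered reads went into edgeR 4.0.16 and DESeq2 1.42.0. Fold changes are on the log2(value + 1) scale, which understates changes of low genes. Intervals of ratios are exact (Clopper-Pearson). With 2 against 2 libraries the smallest exact permutation p is 0.333. The main fit of DSS against water was tested on simulated data. The members, lists, named-gene rule (the 10 members, genes called in a list and the 3 of smallest p, and the 5 genes nearest to Il11 and to Socs3 with a mean of at least 20) and the choice of 4-library fits were made with earlier results of these data known. List genes outside that rule, such as Jak2, Tyk2, Socs2, Cish, Bcl2l1 and Birc5, were named after their values were seen. A gene of the lists is not reported here by name.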

Additional observations from a re-analysis of the deposited data

How the results depend on the processing

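With 2 libraries per group the calls rested on every DSS library. In DSS against water 6 members and 3064 genes were called. Both counts were 0 in the fit of all 6 libraries, members called ranged from 0 to 4 and genes called from 0 to 317 when 1 library was left out, and 1423 genes were called in 1 random draw of reads thinned to the shallowest library. With the replicate block, which is no pairing by design because the labels tie same-numbered libraries to nothing else, 5084 genes and 8 members were called. Same-numbered deviations correlated at 0.089, 0.078 and 0.303. Scaling by library size only moved the median of all genes from 0.10 to 0.33 and the calls from 52.4% higher and 47.6% lower to 71.1% and 28.9%. It left each called member above water, added Il6ra and Stat3, and turned Il11ra1 to 0.15 in this comparison and to -0.044 in DSS plus montmorillonite against DSS. Leaving out 1 library at a time put Il11ra1 between -0.27 and 0.085 in DSS against water, and between -0.053 and 0.30 in DSS plus montmorillonite against water.

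In DSS plus montmorillonite against water DESeq2 called 200 genes and 2 members, and other alternatives called 0 of either. Against DSS, DESeq2 called 66 genes, and without 1 library the members called ranged from 0 to 1 and the genes called from 0 to 285, the higher counts both without DSS plus montmorillonite replicate 2. Leaving out 1 library put the differences from water between -0.55 and 6.02 for Il11 and between -0.31 and 1.44 for Il6ra, the ends being without replicate 2 and without replicate 1 of that group. It put the differences from DSS between -6.08 and 0.33 for Il6, -2.25 and 0.024 for Osmr, -1.48 and 0.28 for Il6ra, -0.53 and 0.25 for Stat3, and -3.06 and 0.33 for Socs3. A group left with 1 library was assumed to vary like the other. The causes were not tested. The other pseudocounts and filters kept the 6 members called, and a mean of at least 10 added Stat3. Low ligand reads in water limit the precision of the ratios of Il6, Il11 and Osm.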

Other observations

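The make-up of the 4 ligand transcripts per kilobase of exon differed between the libraries. In water, Lif made up 70.9% and 81.8% of their summed level per kilobase, and Il11 10.3% and 9.50%. In DSS, Il11 made up 79.4% and 71.6%, Osm 9.06% and 10.4%, Il6 8.23% and 14.4%, and Lif 3.27% and 3.63%. DSS plus montmorillonite replicate 1 had the water pattern, with 80.3% Lif, at a summed level per kilobase of 19.4 against 13.4 and 11.5 in water. Replicate 2 had a mixture of its own, with 43.8% Il11, 33.4% Il6 and 19.0% Osm, at a summed level of 253 against 394 and 969 in DSS. These shares were not tested, and in water they rest on 1 read of Il6, 4 of Il11 and 6 of Osm over both libraries.

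Some pathway genes had their highest value of the 6 libraries in DSS plus montmorillonite replicate 2. Lrg1 had 5667 there against 505 and 1815 in DSS, Lcn2, lipocalin 2, had 3392 against 1172 and 1950, Reg3b, an antimicrobial lectin, 174 against 19.8 and 29.7, and Il22 19.99 against 6.37 and 6.71. In the same library Il11 and Timp1, an inhibitor of matrix proteases with 331 against 432 and 519, were below both DSS libraries. These genes were chosen after their values were seen, and the pattern rests on 1 library. Fos, an immediate-early gene, had its highest value in DSS plus montmorillonite replicate 1, 4887 against 673 to 1399 in the other 5 libraries.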
